A study of Mus musculus with 4 samples.

Results

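The genes described here encode the nuclear-encoded subunits of the mitochondrial respiratory chain and of the ATP synthase, with 5 complex I assembly factors that carry the same prefix. They were taken from the array annotation by symbol: every probe set assigned to a single gene whose symbol begins with Nduf, Uqcr, Cox4 to Cox8 or Atp5, or is Sdha, Sdhb, Sdhc or Sdhd. The rule found 156 probe sets for 84 genes, out of 20380 single-gene probe sets for 12393 genes on the array. A further 8 probe sets matched the prefixes but were assigned to several genes and were left out. Symbols are those of the platform annotation.

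Neural stem cell cultures from mouse ganglionic eminences, the ventral zones of the embryonic forebrain, were profiled at embryonic day 14.5 on Affymetrix arrays, 1 array per sample. The Olig1 knockout (KO) group held 3 arrays and the wild-type group held 1 array, all on a C57/Bl6 background and all from cultures kept in serum-free medium with EGF. KO arrays are numbered by replicate. Olig1 encodes a basic helix-loop-helix factor of the oligodendrocyte lineage. The allele is not described in the labels, nor is the origin of the KO samples from one or several embryos, so any p-value measures only the spread between these arrays.

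Complex I (NADH dehydrogenase) and complex II (succinate dehydrogenase) pass electrons to coenzyme Q, complex III hands them to cytochrome c, and complex IV (cytochrome c oxidase) passes them to oxygen. The proton gradient built on the way drives ATP synthase, complex V, whose membrane part, Fo, drives rotation inside the catalytic F1 head. Most subunits come from nuclear genes and join a small set made inside the mitochondrion, so both genomes have to be expressed for a complex to assemble. In neural stem cells the chain works beside a high rate of glycolysis.

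The values are MAS5 signal intensities, 1 per probe set and array, and their trimmed means, at 500.2 to 500.3, were nearly equal over the 4 arrays. Differences are given as log2(signal + 14.4), which understates changes of dim probe sets. Probe sets were kept for testing if their mean over the 4 arrays was outside the lowest 40%. This left 12228 probe sets, of which 145 were members, for 82 of the 84 genes. The 145 kept members exceeded, in all 4 arrays, the highest of 27 control probe sets for Bacillus transcripts, taken here as background. None of the other 11 did so in all 4, and these included the only probe sets of Cox4i2 and Cox7a1. The Olig1 probe set itself gave 3839.6, 4438 and 8548 in KO arrays 1, 2 and 3 and 7618 in the wild-type array, so the arrays are called by their labels. Sox2, Vim and Egfr, markers of neural stem cells, were above background in all 4 arrays, as were all 8 genes of that marker list.

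No respiratory chain or ATP synthase gene passed the test between KO and wild type. Limma called 0 of the 145 members and 0 of all 12228 probe sets (0%) at an adjusted p under 0.05, and the lowest adjusted p of a member was 0.999. At an unadjusted p under 0.05, 0 members were higher in KO, against 1.31% of all probe sets, and 2 were lower, against 1.2%. The 2 were Cox8b and Ndufaf5. With a single wild-type array, the standard errors of the members lay between 0.31 and 0.61 on the log2 scale. The mean KO difference of 119 members (82.1%) was smaller than the SD of that member's own 3 KO values, as it was for 56.4% of all probe sets. Without KO array 1, limma called only probe sets of the non-member genes Eif2s3y and Tmem87a, and no member. Eif2s3y, a gene of the Y chromosome, gave 654 and 1160 in KO arrays 2 and 3 and 0.61 in the wild-type array. The part of sex in the differences between the arrays was not tested.

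What the members shared was an order of the arrays that did not follow the genotype labels. Set against the wild-type array, they differed by a median log2 value of -0.22, 0.12 and 0.39 in KO arrays 1, 2 and 3. Over all kept probe sets the same medians were 0.02, -0.01 and -0.05. Of the 145 members, 10, 94 and 124 lay above the wild-type array in KO arrays 1, 2 and 3. The median of the mean KO difference was 0.09, which therefore averages arrays that lay on opposite sides of the wild type. It was -0.02 after quantile normalization, -0.03 after cyclic loess and -0.04 without KO array 3. It was 0.27 without KO array 1, and -0.22 with a term that pairs the wild type with KO array 1 and KO array 2 with KO array 3, which leaves the difference of KO array 1 from the wild type. Quantile normalization and cyclic loess also turned the median of KO array 2 negative, at -0.04 and -0.05. The median of KO array 1 stayed below 0 and that of KO array 3 above 0 under every scaling run, between -0.22 and -0.14 and between 0.11 and 0.44.

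**Figure D1:**
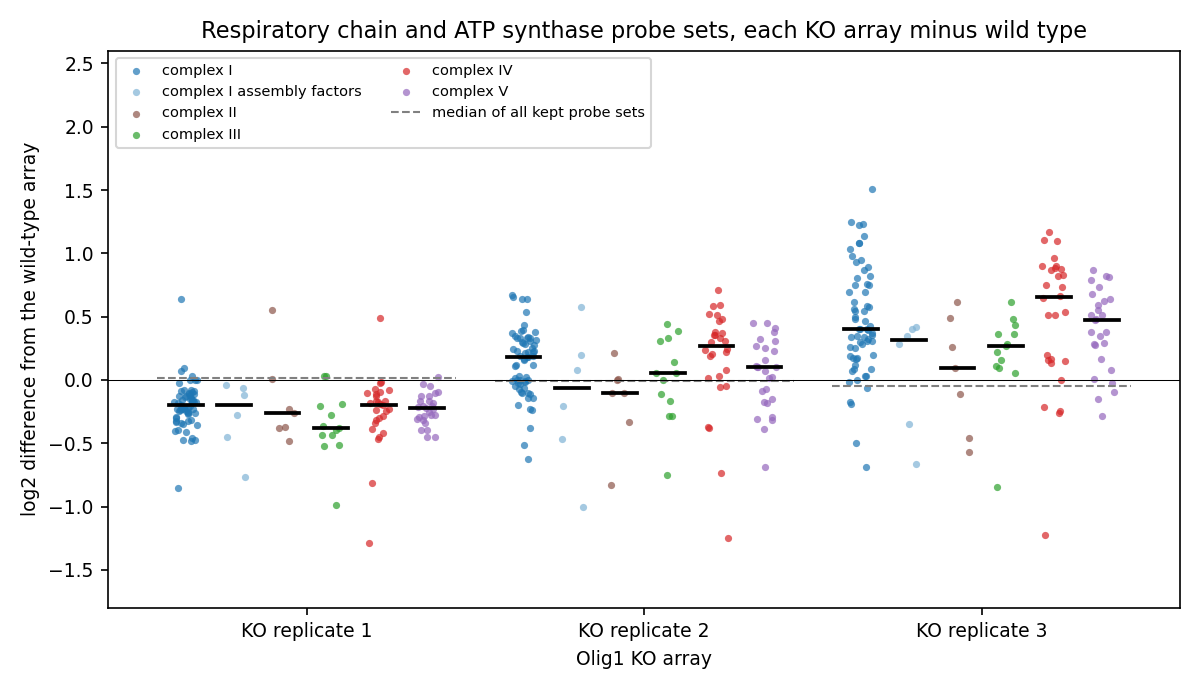
Log2 difference of each kept member probe set from the wild-type array (vertical axis) in the 3 KO arrays (horizontal axis), coloured by complex; black bars are medians of a complex and dashed lines the medians of all kept probe sets. Most points lie below 0 in KO array 1 and above 0 in KO array 3, where the median over members was 0.39.

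KO array 3 gave the highest value of the 4 arrays for 112 of the 145 members, or 77.2%, against 28.3% of all kept probe sets. KO array 1 gave the lowest value for 119 members, or 82.1%, against 20.2% of all. Both held at once for 99 members, against 11.5% of all. Among members with a mean log2 value over 13, KO array 3 was the highest for 89.1% and KO array 1 the lowest for 97.8%. The other kept probe sets of that brightness gave 76.6% and 77.7%. Between 12 and 13 the shares were 80.4% and 89.1% of members, and 48.8% and 34.9% of the others. The wild-type array was the lowest for 5 members and the highest for 19. After quantile normalization, KO array 3 was the highest for 86 members and KO array 1 the lowest for 88, beside 32.2% and 21.1% of all kept probe sets.

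**Figure D2:**
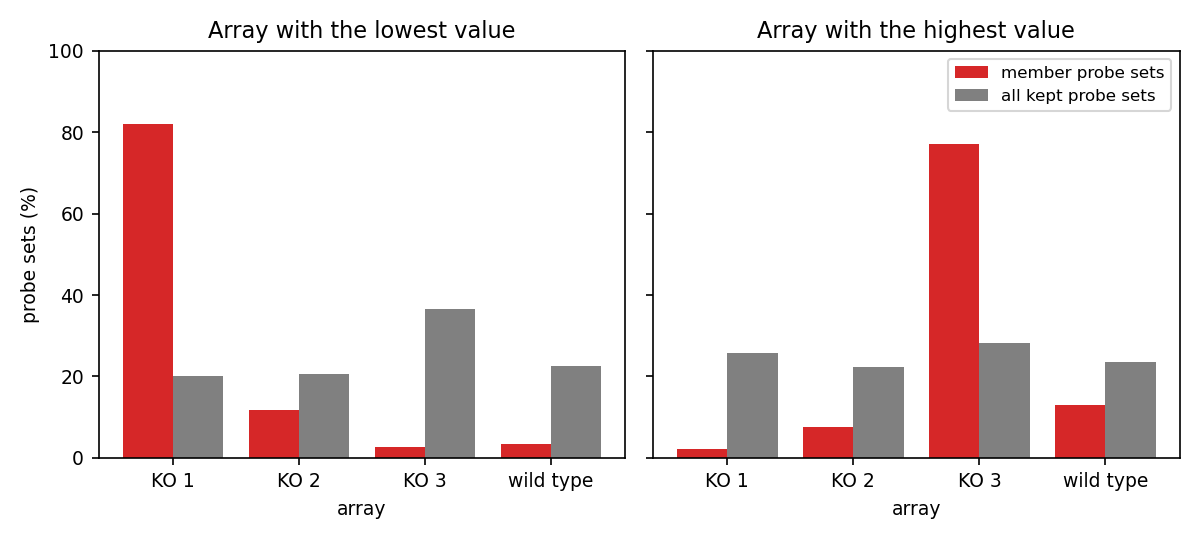
Share of probe sets (vertical axis, %) for which each array (horizontal axis) gave the lowest value (left) or the highest value (right), for the member probe sets in red and all kept probe sets in grey. KO array 1 was lowest for 82.1% of members and KO array 3 highest for 77.2%. Among the other kept probe sets with a mean log2 value over 13, which are not drawn apart, these shares were 77.7% and 76.6%.

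Control probe sets differed between the arrays as well. The 18 spiked-in control probe sets stood, by their median ratio to the wild-type array, at 0.90, 1.89 and 2.75 in KO arrays 1, 2 and 3, which is the order of the members' medians. The median signal of the 18S ribosomal RNA control probe sets was 7.24, 946 and 2823 in KO arrays 1, 2 and 3 and 4.64 in the wild-type array. The 3'/5' ratio of beta-actin was 1.25, 1.30 and 1.82 in KO arrays 1, 2 and 3 and 1.11 in the wild-type array. The 3'/5' ratio of Gapdh was 0.79, 1.03 and 0.84 in the KO arrays and 0.76 in the wild-type array. All 3 of these measures were lowest in the wild-type array. Among the KO arrays, 18S and beta-actin were highest in KO array 3 and Gapdh in KO array 2. The part of these in the members' order was not tested.

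The order also moved with brightness. Among the 46 members with a mean log2 value over 13, a signal of about 8192, the median step from the wild-type array was -0.25, 0.26 and 0.60 in KO arrays 1, 2 and 3. The 175 other probe sets of that brightness gave -0.16, 0.49 and 0.74. Between 12 and 13, 46 members gave -0.21, 0.08 and 0.38, and 361 others gave -0.03, 0.12 and 0.17. Between 11 and 12, 24 members gave -0.22, -0.05 and 0.18, while 798 others gave -0.01, -0.01 and 0.02. The brightest other probe sets thus differed between the arrays in the same directions as the members, and below that brightness the members' medians in KO arrays 1 and 3 lay farther from 0 than those of the others. The 3 dimmer classes held only 8, 15 and 6 members. No test of members against other probe sets was made.

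**Figure D3:**
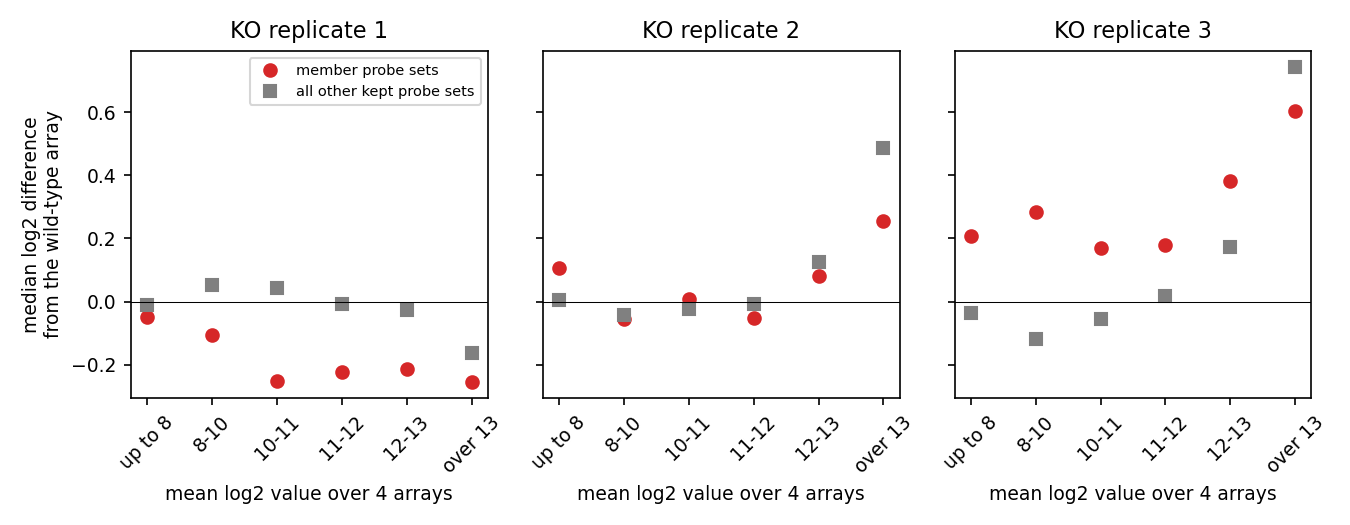
Median log2 step from the wild-type array (vertical axis) by mean log2 value over the 4 arrays (horizontal axis), for members (red circles) and all other kept probe sets (grey squares), 1 panel per KO array. In KO array 3 both are farthest from 0 in the brightest class, at 0.60 for members and 0.74 for the others.

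Only 5 members had the wild-type array below all 3 KO arrays (3.45%, against 22.6% of all kept probe sets), and 19 had it above all 3 (13.1%, against 23.6%). These counts turned on single arrays. Without KO array 1, 93 of the 145 members lay above the wild type in both remaining KO arrays, against 34.2% of all kept probe sets. Without KO array 2 the count of higher members was 9, against 27.6% of all. Without KO array 3 the count of lower members was 46, close to the 31.1% of all kept probe sets that were lower there. Cyclic loess gave 10 higher, against 23.8% of all, and 40 lower, against 23.5%. Quantile normalization gave 9 higher, against 24.4% of all, and 41 lower, against 22.6%. By at least 0.5 log2, 1 member was higher in all 3 KO arrays, against 2.09% of all kept probe sets, and 4 were lower, against 2.07%. The higher one was Ndufb1, and the lower ones were Cox8b, Ndufaf5, Ndufs8 and Uqcrc1.

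Cox8b, the subunit 8 isoform of cytochrome c oxidase typical of heart and skeletal muscle, was the member farthest from the wild type. Its signal was 526, 544 and 553 in KO arrays 1, 2 and 3 and 1308 in the wild-type array. The KO arrays lay close together and all below the wild type. The mean of 541.0 ± 13.6 (SD, n = 3) in KO stood at -1.25 in log2 against the wild type (SE 0.31, limma unadjusted p = 0.0055, adjusted p = 0.999). Over the alternatives run it stayed between -1.29 and -1.17. Only 1 of 14 striated muscle markers passed the filter, Actc1, and the summed signal of the list was 630.4, 907 and 729 in KO arrays 1, 2 and 3 and 624 in the wild-type array. Of that list, 6 genes, among them Acta1 and Tnnt2, were at background in all 4 arrays.

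Its ubiquitous counterpart Cox8a did not share this pattern. The plain probe set gave 8127, 12104 and 14665 in KO arrays 1, 2 and 3 and 10296 in the wild-type array, so KO array 1 lay below and the other KO arrays above the wild type. A second Cox8a probe set gave 7546, 12909 and 17349.6 in the KO arrays and 10429 in the wild-type array. The last one was at background in 3 arrays. Cox8c, known as the testis isoform, gave 429, 526 and 529 in the KO arrays and 459.8 in the wild-type array.

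The promoters of both genes are shown because these isoforms parted between the arrays, with those of Ndufaf5 and Uqcrc1, chosen after the motif search because each held a match. The windows of Ndufs8 and Ndufb1, the other members at least 0.5 log2 apart from the wild type, held none of the 4 motifs and are not shown. RefSeq windows of GRCm38.p6 run from 250 bases before to 50 bases after the annotated start, and 75 windows matched 70 of the 84 genes by gene identifier. They lie at chr7:140900397-140900696 (minus strand), chr19:7217567-7217866 (minus strand), chr2:140170396-140170695 (plus strand) and chr9:108936398-108936697 (plus strand). Capitals mark matches, on either strand, to CGCATGCG (the core of the NRF-1 site), CCGGAAGT (an ETS core bound by GABP, also called NRF-2), AAGATGGC (a YY1 core) or TATAAA, the letters of a core promoter element.
Cox8b: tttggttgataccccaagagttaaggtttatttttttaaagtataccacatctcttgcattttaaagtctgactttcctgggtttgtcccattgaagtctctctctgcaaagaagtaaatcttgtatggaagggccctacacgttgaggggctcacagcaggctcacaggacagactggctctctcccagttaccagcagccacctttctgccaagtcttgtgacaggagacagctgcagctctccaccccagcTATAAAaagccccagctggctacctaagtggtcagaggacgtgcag
Cox8a: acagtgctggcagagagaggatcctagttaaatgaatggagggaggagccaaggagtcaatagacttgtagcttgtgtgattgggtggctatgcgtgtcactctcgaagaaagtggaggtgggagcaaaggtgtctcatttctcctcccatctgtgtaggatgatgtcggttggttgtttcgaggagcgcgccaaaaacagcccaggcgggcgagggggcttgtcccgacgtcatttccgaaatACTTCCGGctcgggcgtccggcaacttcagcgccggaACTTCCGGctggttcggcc
Ndufaf5: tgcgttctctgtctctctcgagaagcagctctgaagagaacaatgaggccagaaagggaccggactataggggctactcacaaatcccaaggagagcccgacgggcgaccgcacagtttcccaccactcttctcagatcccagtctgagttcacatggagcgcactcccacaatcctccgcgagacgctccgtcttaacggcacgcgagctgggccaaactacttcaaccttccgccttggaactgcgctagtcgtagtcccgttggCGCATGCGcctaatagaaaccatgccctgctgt
Uqcrc1: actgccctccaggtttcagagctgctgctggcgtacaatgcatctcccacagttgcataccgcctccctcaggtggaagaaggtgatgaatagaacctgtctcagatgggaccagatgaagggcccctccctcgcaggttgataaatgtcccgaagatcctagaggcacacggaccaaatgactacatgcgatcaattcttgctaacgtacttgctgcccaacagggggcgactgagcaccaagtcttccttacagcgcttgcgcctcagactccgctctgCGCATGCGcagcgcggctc

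NRF-1, GABP and YY1 are transcription factors known for binding promoters of respiratory genes. In these windows Cox8b held 1 match to TATAAA, beginning at base 5 from the annotated start and so not before it, and none of the other 3 motifs, Cox8a held 2 ETS cores, and Ndufaf5 and Uqcrc1 held 1 NRF-1 core each. Over the members, 13.3% of windows held the NRF-1 core, against 1.87% of all 32851 windows of that length. The shares were 6.67% against 3.89% for the ETS core, 12% against 2.75% for the YY1 core and 10.7% against 13.6% for TATAAA. A match is a run of letters and not a measured site.

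Ndufaf5, a methyltransferase-like factor needed to assemble complex I, gave 532, 449 and 572 in KO arrays 1, 2 and 3 and 914 in the wild-type array. Every KO array was below the wild type, by -0.81 in log2 (SE 0.33, limma unadjusted p = 0.045, adjusted p = 0.999). Uqcrc1, a core protein of complex III, gave 3269, 2765 and 2596 in the KO arrays and 4667 in the wild-type array. The difference was -0.70 (SE 0.33, limma adjusted p = 0.999), with the 3 KO values apart from the wild-type one. The other core protein gene, Uqcrc2, gave 4407, 4484 and 5359 in the KO arrays and 5029.6 in the wild-type array with one probe set, so the groups overlapped there.

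Ndufb1, a small accessory subunit of complex I, ran the other way. It gave 296.8, 301.7 and 410.4 in KO arrays 1, 2 and 3 and 185.8 in the wild-type array, that is, 0.79 in log2 (SE 0.35, limma adjusted p = 0.999). All 3 KO arrays were above the wild type, between 0.64 and 0.87 in log2 over the alternatives. The other 4 members above the wild type in every KO array were single probe sets of Ndufa7, Uqcrb, Uqcrfs1 and Cox6a2. Cox6a2, a muscle isoform like Cox8b, gave 183.7, 163.3 and 142.5 in the KO arrays and 126.7 in the wild-type array.

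**Figure D4:**
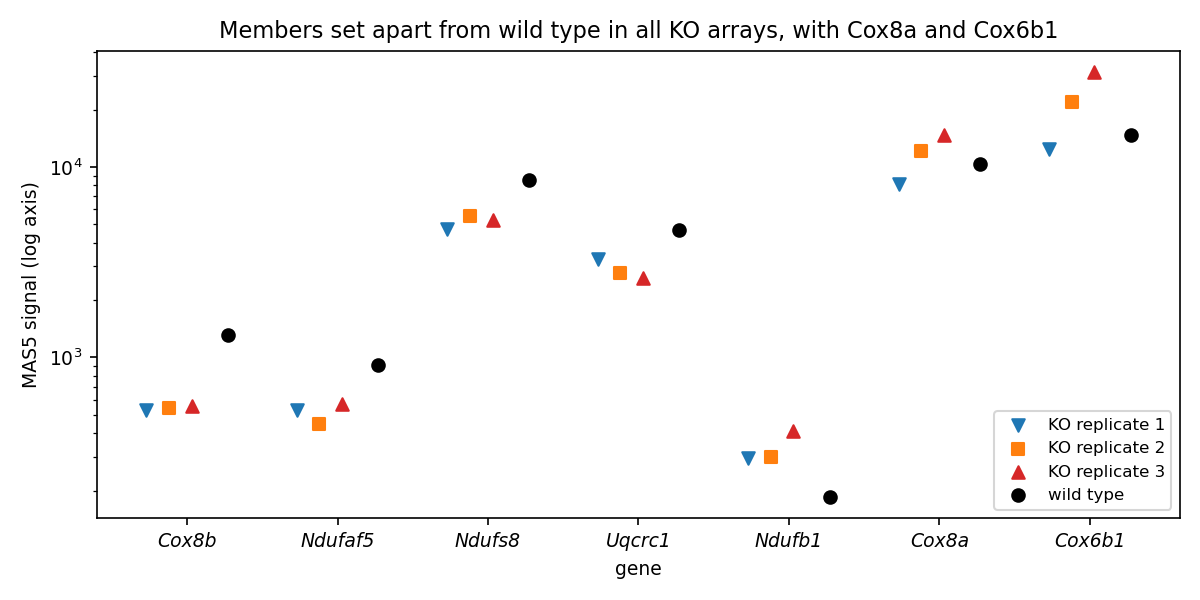
MAS5 signal on a log axis (vertical) for 7 members (horizontal), with the 3 KO arrays left of the wild-type array (black circle). Cox8b, Ndufaf5, Ndufs8 and Uqcrc1 lie below the wild type in every KO array, Ndufb1 above it, and Cox8a and Cox6b1 on both sides. Signals of different genes are not comparable.

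Complex I was the largest group, with 64 kept probe sets for 33 genes. Its median step from the wild-type array was -0.20, 0.18 and 0.40 in KO arrays 1, 2 and 3. The 48 probe sets of accessory subunits gave -0.18, 0.20 and 0.42, and the 16 of core subunits, which carry the electron path, gave -0.23, 0.01 and 0.25. KO array 3 was the highest array for 40 of the 48 and for 13 of the 16.

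Core subunit genes with several probe sets gave different answers by probe set. For Ndufs8, an iron-sulfur subunit with 6 kept probe sets, one gave 4731, 5553 and 5294 in KO arrays 1, 2 and 3 and 8557 in the wild-type array, all KO arrays being lower (-0.72 in log2, SE 0.32, limma adjusted p = 0.999). Another gave 5455, 8554 and 11826 in the KO arrays and 6488 in the wild-type array, a difference of 0.34 (SE 0.47). Its place among the lower members thus rests on a single probe set.

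Ndufv2, a core subunit of complex I, showed the largest spread between KO arrays of any kept member. That probe set gave 3904, 6887 and 12569.7 in KO arrays 1, 2 and 3 and 4417 in the wild-type array, while a second gave 6967, 10364 and 12009 in the KO arrays and 9149.5 in the wild-type array. KO array 3 was the highest in both, but the step over the wild type was 1.51 with one and 0.39 with the other. Ndufv1, its partner in the NADH-binding module, had 1 probe set at 2300.0, 1734 and 1754.5 in the KO arrays and 2484 in the wild-type array, lower in all 3. A second Ndufv1 probe set gave 1643, 1528 and 1907 in the KO arrays and 1536 in the wild-type array, on both sides of it. The third gave 1419, 1424 and 1683 in the KO arrays and 1685 in the wild-type array, lower in all 3 but barely so in KO array 3. Ndufs7, Ndufb11 and Ndufc1 were, with 2 Ndufv2 probe sets, the 5 members of largest spread over the KO arrays. For Ndufs7, an iron-sulfur subunit, that probe set gave 1444, 2051 and 3981 in the KO arrays and 1687 in the wild-type array. The brighter Ndufs7 probe set spread less, with 2404, 2835 and 3027 in the KO arrays and 2857 in the wild-type array.

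Of the 42 genes with several kept probe sets, 17 had differences of opposite sign between KO and wild type, and 10 had differences more than 0.5 log2 apart. The widest was Cox6c, a cytochrome c oxidase subunit, where one probe set gave 3456, 3643 and 5125 in KO arrays 1, 2 and 3 and 6074 in the wild-type array, a log2 difference of -0.60. The other gave 12583, 23469 and 26809 in the KO arrays and 14357 in the wild-type array, a difference of 0.47. The remaining genes past this spread, besides Ndufs8, Ndufv1 and Ndufv2, were Cox7a2l, Ndufa7, Uqcrq, Cox5b, Ndufb9 and Sdhd. Suffixes _a, _s and _x mark probe sets that can read several transcripts. In KO array 3 the median step over the wild type was 0.29 for the 64 members without a suffix, 0.60 for 38 with _a, 0.47 for 17 with _s and 0.59 for 26 with _x. In KO array 1 the same medians were -0.22, -0.21, -0.20 and -0.25. Of 32 genes with both kinds, 26 had the larger step in KO array 3 with the marked probe sets, by a median of 0.32.

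The 6 probe sets of complex I assembly factors, which help build the complex without staying in it, had medians of -0.20, -0.06 and 0.32 in KO arrays 1, 2 and 3. Besides Ndufaf5, only Ndufaf3 was lower in all 3 KO arrays. It gave 607, 602 and 655 in the KO arrays and 837 in the wild-type array, a log2 difference of -0.42.

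Complex II, wholly nuclear-encoded and shared with the citric acid cycle, had a negative median of the mean KO difference, at -0.13 as the signals were deposited, and the medians were -0.26, -0.10 and 0.09 in KO arrays 1, 2 and 3. Both probe sets of Sdha, the flavoprotein that oxidises succinate, were lower in all 3 KO arrays. One gave 3695, 2687 and 3232 in the KO arrays and 4793 in the wild-type array, that is, -0.59 in log2 (SE 0.34, limma adjusted p = 0.999). The other gave 1728, 1643 and 1506 in the KO arrays and 2077 in the wild-type array. Sdhb, the iron-sulfur subunit, gave 6029, 8477 and 8993 in the KO arrays and 8436 in the wild-type array, on both sides of it. Sdhc and Sdhd, which anchor the complex in the membrane, had 2 probe sets each. Those of Sdhc differed by 0.20 and 0.09, and those of Sdhd by -0.20 and 0.31.

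Complex III had 13 kept probe sets for 8 genes, with medians of -0.38, 0.05 and 0.27 in KO arrays 1, 2 and 3. Uqcrfs1, the Rieske iron-sulfur protein, gave 4222, 5394 and 4603 in the KO arrays and 4121 in the wild-type array, higher in all 3 by a mean of 0.19. Uqcrb, a small subunit near the quinone site, gave 13264, 21820.0 and 21673 in the KO arrays and 16040.1 in the wild-type array with its brighter probe set. Uqcrh, the hinge protein, gave 7789, 9778 and 12265 in the KO arrays and 10546 in the wild-type array. In both, KO array 1 lay lowest and KO array 3 above the wild type.

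Complex IV showed the widest steps in KO array 3. Its 28 kept probe sets for 15 genes had medians of -0.20, 0.27 and 0.66 in KO arrays 1, 2 and 3, and 27 of them lay below the wild type in KO array 1. Cox4i1, the ubiquitous form of subunit 4, gave 8863, 14031 and 18979 in the KO arrays and 10185 in the wild-type array. Cox6b1, which faces the cytochrome c side, gave 12452, 21985 and 31503 in the KO arrays and 14654 in the wild-type array, and Cox7a2, the ubiquitous form of subunit 7a, gave 15104, 24156 and 36286 in the KO arrays and 16958 in the wild-type array. In all 3 genes KO array 1 lay below the wild type and KO arrays 2 and 3 above it. Cox6a1, the ubiquitous form of subunit 6a, had the same order with both probe sets, at 10032, 15898 and 21047 in the KO arrays and 11408 in the wild-type array with one of them.

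Of the isoforms known from single tissues, Cox8c followed that order, and Cox6b2, Cox4i2 and Cox7a1 did not. Cox6b2, a testis form, gave 929, 962 and 859.9 in KO arrays 1, 2 and 3 and 1000.4 in the wild-type array, all 3 below it (log2 difference -0.13). Cox4i2, known from lung and low oxygen, gave 72.7, 152.6 and 50.6 in the KO arrays and 76.9 in the wild-type array, with KO array 3 at background. Cox7a1, the muscle form of subunit 7a, gave 44.7, 65.6 and 7.73 in the KO arrays and 69.7 in the wild-type array, also at background in KO array 3. Neither passed the filter. Cox7a2l, a factor of respiratory supercomplexes, had 3 probe sets with differences of 0.47, 0.35 and -0.18, and the first 2 had KO array 1 below and KO arrays 2 and 3 above the wild type. Ndufa4, named for complex I but known as a complex IV subunit, gave 8200.4, 11826 and 8024 in the KO arrays and 9622 in the wild-type array, so here KO array 3 lay below the wild type.

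In the ATP synthase, the medians of the head and the membrane part differed. The 9 probe sets of the F1 head and its central stalk had medians of -0.19, -0.18 and 0.01 in KO arrays 1, 2 and 3. The 18 of Fo and the peripheral stalk had medians of -0.24, 0.13 and 0.55. All 18 lay below the wild type in KO array 1 and above it in KO array 3. KO array 3 was the highest array for each of the 18 and for 4 of the 9 F1 probe sets. It was the highest for 28.3% of all kept probe sets, and for 76.6% of non-members with a mean log2 value over 13. The difference between the parts was not tested.

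Atp5b, the catalytic beta subunit, gave 10478, 11410.2 and 12460.1 in KO arrays 1, 2 and 3 and 12687 in the wild-type array, lower in all 3. Atp5a1, the alpha subunit, gave 9656, 9671 and 9915 in the KO arrays and 10980.2 in the wild-type array with its brightest probe set, also lower in all 3. Its dimmer probe sets lay on both sides of the wild type, with log2 differences of -0.08 and -0.04. Atp5d, the delta subunit, was lower in all 3 with one probe set (log2 difference -0.38) and differed by 0.06 with the other. Other F1 genes had KO array 1 lowest and KO array 3 highest. With its brighter probe set Atp5c1 gave 10197, 12817 and 16584 in the KO arrays and 11929 in the wild-type array. Atp5e gave 3504, 3696 and 6769 in the KO arrays and 4609 in the wild-type array. The 3 genes for subunit c, which forms the rotating ring, shared one order of the arrays. Atp5g1 gave 3177, 4875 and 5650.5 in the KO arrays and 3665 in the wild-type array. Atp5g2 gave 6342, 9969 and 10859 in the KO arrays and 8351 in the wild-type array, and Atp5g3 gave 11321, 18403 and 21003 in the KO arrays and 13469 in the wild-type array. Each had KO array 1 below and KO arrays 2 and 3 above the wild type, and their mean KO differences of 0.28, 0.08 and 0.28 had SEs of 0.41, 0.41 and 0.43.

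**Figure D5:**
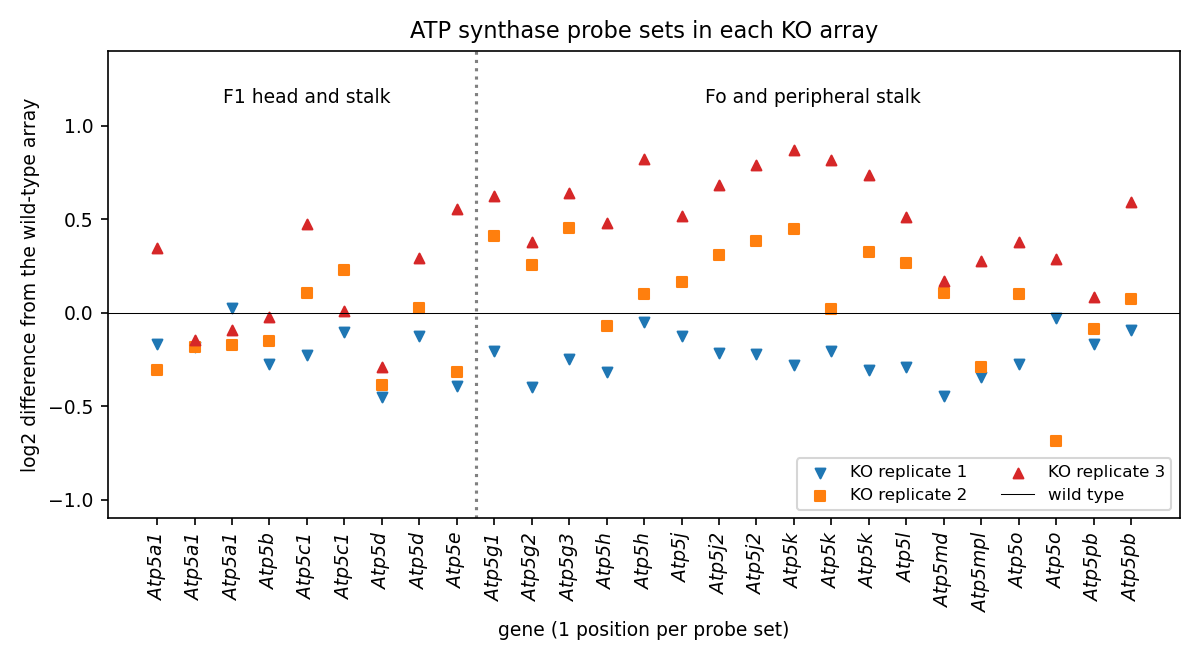
Log2 difference from the wild-type array (vertical axis) of the 27 kept ATP synthase probe sets (horizontal axis, by gene) in KO arrays 1 (blue), 2 (orange) and 3 (red), with F1 left of the dotted line and Fo with the peripheral stalk right of it. To the right, every blue point lies below 0 and every red point above it.

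Other genes of oxidative metabolism were taken from lists. The mitochondrial genome was measured by 1 probe set, for ND5 of complex I, with 10355.0, 20528 and 17615.0 in KO arrays 1, 2 and 3 and 12907 in the wild-type array. KO array 1 was again the lowest, and KO array 2 the highest. Among 37 kept probe sets of assembly factors for complexes II to V, 9 lay above and 7 below the wild type in every KO array, near the 22.6% and 23.6% of all kept probe sets, and the medians were -0.08, 0.05 and 0.19. Coa5, a complex IV assembly factor, gave 130.2, 199.3 and 198.0 in the KO arrays and 342.9 in the wild-type array. Among 21 kept probe sets of electron carriers and coenzyme Q synthesis, 1 was higher and 8 lower in all 3, against the same shares. Sqor, which feeds electrons from sulfide into coenzyme Q, gave 130.3, 117.2 and 78.0 in the KO arrays, the last at background, and 242.7 in the wild-type array. Limma called 0 in either list, and 1 probe set of each, those of Coa5 and Sqor, was lower at an unadjusted p under 0.05.

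Citric acid cycle and pyruvate dehydrogenase genes feed electrons to the chain. Of 29 kept probe sets for 17 genes, 15 were lower and 1 was higher in all 3 KO arrays, against 23.6% and 22.6% of all kept probe sets, and limma called 0, with 1 higher and 1 lower at an unadjusted p under 0.05. The difference of this list from other probe sets was not tested. Its medians were -0.12, -0.30 and -0.09 in KO arrays 1, 2 and 3. Suclg2, a subunit of succinyl-CoA ligase, gave 517, 571 and 487 in the KO arrays and 1087 in the wild-type array, that is, -1.03 in log2 (SE 0.32, limma adjusted p = 0.999). For Dlst, of the oxoglutarate dehydrogenase complex, one probe set gave 191.4, 217.9 and 223.0 in the KO arrays and 98.8 in the wild-type array, and another gave 1636, 1087 and 1055 in the KO arrays and 1897 in the wild-type array, in opposite directions.

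Markers of other cell types were low or uneven. Summed signals of the neuron list were 2719, 2869 and 1782 in KO arrays 1, 2 and 3 and 2935 in the wild-type array, and those of the astrocyte list 6828, 5363 and 7131 in the KO arrays and 8231 in the wild-type array. Of 12 kept astrocyte probe sets, 5 were lower and 1 was higher in all 3 KO arrays, against 23.6% and 22.6% of all kept. For Gja1 of that list, one probe set gave 181, 145 and 160 in the KO arrays and 556 in the wild-type array (-1.70 in log2). Further Gja1 probe sets were also lower in all 3 KO arrays, at -1.04, -0.999 and -0.74 in log2. The last of these gave 1473, 946 and 2315 in the KO arrays and 2480 in the wild-type array. A dimmer Gja1 probe set gave 187, 151 and 260 in the KO arrays and 135 in the wild-type array. It ran in the opposite direction and was the 1 higher of the list. Oligodendrocyte lineage markers summed to 9177, 8319 and 11940.1 in the KO arrays and 12374 in the wild-type array, and neural stem cell markers to 38797, 54520.5 and 58613 in the KO arrays and 41446 in the wild-type array. The oligodendrocyte sum was carried by Olig1, the targeted gene, whose signals are given above, and by Olig2. Signals of Olig2 were 4939, 3411 and 2694 in the KO arrays and 4278 in the wild-type array. The stem cell sum was carried by bright genes such as Fabp7, with 13667, 25379.6 and 34007 in the KO arrays and 16547 in the wild-type array. Over the 18 kept probe sets of that list the medians were 0.10, 0.24 and -0.12 in KO arrays 1, 2 and 3. KO array 3 was the highest for 4 and KO array 1 the lowest for 1. Its medians thus did not run in the members' order, though its sums did. Of 7 kept oligodendrocyte probe sets, KO array 3 was the highest for 6 and KO array 1 the lowest for 4. These counts were 5 and 2 of 12 for astrocytes and 1 and 0 of 4 for neurons. Over all kept probe sets the shares were 28.3% and 20.2%. Microglia markers summed to 268 to 444 in the KO arrays and 283 in the wild-type array, with 1 of 6 genes at background in every array, and the lists of endothelium, erythroid cells and brown fat to 71.9 to 240.2 in the KO arrays and 83.7 to 256 in the wild-type array. Rbfox3, a marker of mature neurons, was above background in 1 array, and Mog, of mature oligodendrocytes, in none. In bulk cultures, a change in the share of a cell type and a change in RNA per cell cannot be told apart. The part of these markers in the members' order was not tested.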

How the data were processed

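The deposited table holds MAS5 signal intensities, 1 column per array, that the authors computed and scaled per array, per the submitters' processing notes and the values. The MAS5 version is not given in the sources used here, and the table held no detection calls. Of 22690 probe sets, 64 were controls, 691 named several genes and 1606 none. The 20380 non-control probe sets with 1 symbol were taken, and the 40% with the lowest mean log2 value were left out. Signals were transformed as log2(signal + 14.4), the added value being 0.1 times the median signal, and tested by limma 3.58.1 in R 4.3.3 (lmFit and eBayes, two-sided, Benjamini-Hochberg over all 12228 probe sets, threshold 0.05). With 1 wild-type array the spread of a probe set comes from the 3 KO arrays, and the number of arrays limits precision. The eBayes step drew each variance toward a value shared by all 12228 probe sets. That shared value carried 4.88 degrees of freedom, against 2 from the probe set's own arrays. The SEs and p-values thus do not measure the spread of each probe set alone. The script was tested on simulated data. Levels of different probe sets are not comparable; brightness served only to choose and bin probe sets, and marker signals were summed only to compare arrays.

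The members and lists were chosen with earlier results of these data known. Named in the text were the brightest and most different genes of each complex, probe sets at least 0.5 log2 outside the KO range, isoform pairs, complex II, the 5 widest over KO arrays, genes whose probe sets lay over 0.5 log2 apart, members with an unadjusted p under 0.05, and up to 3 genes of each other list. Uqcrc2, Uqcrfs1, Ndufaf3, Atp5a1, Atp5b, Atp5c1, Atp5d, Atp5e and the remaining members lower or higher in every KO array were chosen with their values seen. Alternatives were other scalings, pseudocounts, filters, probe set choices, eBayes settings, a pair term and leaving out arrays. Promoters are RefSeq windows, motif matches counted by letters.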

Additional observations from a re-analysis of the deposited data

How the results depend on the processing

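No member passed the test under any of the 16 alternatives, of which cyclic loess was chosen after seeing the data. Leaving out 1 KO array gave 0 to 2 called probe sets of all kept, the 2 being called without KO array 1. The members above the wild type in every KO array then numbered 5 to 93, against 27.6% to 34.2% of all kept probe sets, those below it 20 to 46, against 28.7% to 38.2%, and their median difference lay between -0.04 and 0.27. The counts of members above and below were 3 and 12 of 82 with 1 probe set a gene, 10 and 40 after cyclic loess, and 9 and 41 after quantile normalization. Those above were 9 after median centring and 8 without a filter. Those below were 11 with the mean of a gene's probe sets and 10 without suffixed probe sets. KO array 3 was the highest for 63, 64 and 45 members, and KO array 1 the lowest for 67, 64 and 51, with 1 probe set a gene, the mean of a gene's probe sets and no suffixed probe sets. These 3 settings tested only 82, 83 and 64 members. A term pairing the wild type with KO array 1, and KO array 2 with KO array 3, leaves the difference of KO array 1 from the wild type and gave a median of -0.22 over members, -0.38 for complex III and -0.20 for complex IV. After cyclic loess the medians of complexes I, III and V were -0.02, -0.08 and -0.07, below 0. Cox8b, Ndufaf5, Uqcrc1, Ndufb1, the lower Ndufs8 probe set and Sdha kept their sign under every alternative run. The lower Ndufs8 probe set came to -0.015 as a mean over the gene's probe sets. Apart from that term, chosen from earlier results of these data, replicate numbers pair no samples. No paired analysis was possible because the replicate numbers only name the arrays and the groups share only number 1. The sample titles of KO arrays 2 and 3 carry a further number, and those of KO array 1 and the wild-type array carry none. What that number stands for is not given in the titles. With 1 wild-type array, the spread between wild-type samples could not be measured.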

Other observations

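Regulators of mitochondrial biogenesis and the carriers and porins of the mitochondrial membranes gave these values. Of 29 kept probe sets of biogenesis regulators, 9 lay above and 4 below the wild type in every KO array, against 22.6% and 23.6% of all kept probe sets. KO array 3 was the highest for 6, against 28.3% of all. Limma called 0, with 0 higher and 1 lower at an unadjusted p under 0.05. Nrf1, a transcription factor of respiratory genes, gave 178.9, 374.4 and 335.1 in KO arrays 1, 2 and 3 and 170.2 in the wild-type array. Yy1, another such factor, gave 146.9, 106.8 and 136.6 in the KO arrays and 257.9 in the wild-type array, and was the 1 lower. Of 20 kept probe sets of carriers and porins, KO array 3 was the highest for 14 and KO array 1 the lowest for 10, against 28.3% and 20.2% of all. Limma called 0, with 0 in either direction at an unadjusted p under 0.05. Vdac1, the main porin of the outer membrane, gave 3133, 2984 and 1866 in the KO arrays and 4015 in the wild-type array with one probe set, and 907.0, 895.8 and 1800.5 in the KO arrays and 909.7 in the wild-type array with another.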
